A study of Mus musculus with 12 samples.

Results

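The cytosolic and mitochondrial chaperones of the heat shock response, together with their transcription factor, were followed in liver and in macrophages exposed to esculetin, a plant coumarin. The set was 10 genes chosen by symbol: Hsf1, Hspa1a, Hspa1b, Hspa8, Hsp90aa1, Hsp90ab1, Hsph1, Dnajb1, Hspb1 and Hspd1. All 10 were found among the 55357 gene identifiers of both tables of raw counts. RNA was sequenced in 12 libraries, 3 in each of 4 groups. The liver libraries came from male wild-type C57BL/6J mice aged 8 to 9 weeks, with a pair of mice behind every sample. All of these mice were gavaged daily for 7 days, either with esculetin at 90 mg/kg dissolved in 2.5% Tween-80 or with this vehicle as control. All of them ate a diet with 10% of its energy from fat for 4 days and one with 60% for 3 days. The cell libraries came from RAW264.7, an established mouse macrophage line of wild-type genotype per the labels. Every culture, controls included, received oxidized low-density lipoprotein (ox-LDL) carrying the dye DIL at 25 µg/mL for 24 hours. Esculetin was given at 40 µg/mL dissolved in DMSO, and controls received DMSO. No culture without ox-LDL was analysed here, so the values describe esculetin in lipid-loaded cells only. Whether the 3 cell libraries of a group were separate cultures was not stated, so their p-values measure the spread between these libraries, which may be technical.

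Cells under heat or chemical stress accumulate unfolded proteins. HSF1, which is held inactive in unstressed cells, then forms trimers, binds heat shock elements (repeats of the letters GAA and TTC) and raises the transcription of chaperone genes. HSP70 proteins bind unfolded chains with the help of HSP40 cochaperones, HSP110 exchanges their nucleotide, and HSP90 completes the folding of kinases and steroid receptors. Several of these proteins exist as an inducible and a constitutive form: HSPA1A and HSPA1B beside HSPA8 among the HSP70 proteins, and HSP90AA1 beside HSP90AB1 in the cytosolic HSP90 pair. In liver and macrophages both constitutive forms are known to be abundant.

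The letters that HSF1 recognises are shown first, because they relate the members to one another by a feature that the measurements did not use. The 250 bases before the start of each gene's canonical transcript were read from the mouse genome build GRCm39 and searched for the paired elements GAANNTTC and TTCNNGAA, which read the same on both strands and were allowed to overlap. Such an element lay in 5 of the 10 members' windows and in 12.3% of the windows of 21627 protein-coding genes. A run of 3 alternating units lay in the window of Hspd1 alone among the members, against 0.347% of all windows. Each line gives 30 bases with the elements in capitals.
Hspa1a, chr17:35191218-35191247, minus strand: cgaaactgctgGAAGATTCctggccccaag
Hspa1b, chr17:35178300-35178329, minus strand: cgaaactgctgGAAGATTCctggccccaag
Hsph1, chr5:149559816-149559845, minus strand: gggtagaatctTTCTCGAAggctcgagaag
Hspb1, chr5:135916655-135916684, plus strand: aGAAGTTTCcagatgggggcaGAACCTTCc
Hspd1, chr1:55127212-55127241, minus strand: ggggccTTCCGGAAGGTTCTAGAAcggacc
In Hspd1 the overlapping elements formed 1 unbroken stretch of 18 bases, lying 35 to 52 bases before the start. The stretches of Hspa1a and Hspa1b were the same letters at the same distance, 97 to 104 bases before the start. The windows of Hsf1, Hspa8, Hsp90aa1, Hsp90ab1 and Dnajb1 held neither form, which says only that these letters were not in these 250 bases. An element was therefore present in 1 of the 3 members that rose in the cells (Hsph1) and in neither of the 2 that fell. Of the other members with an element, Hspa1a and Hspb1 had too few counts to be tested in the cells. Hspa1b, with few counts, and Hspd1 did not pass the test. A link between the element and the response was not tested. The windows of Hspa8, Hsp90aa1, Hsp90ab1, Hsph1 and Hspd1 lay inside the annotated gene. Bases before annotated starts other than the canonical one were not searched.

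The 100 bases before the start are given for 3 members on which the values below turn: the inducible HSP70 pair, whose reads are hard to separate, and Dnajb1, which rose in the cells. Capitals mark the letters of the CCAAT box in either orientation (CCAAT or ATTGG), which lay within 100 bases of 21.9% of all starts. The letters TATAA, found in 7.83% of these windows, were in none of the 10.
Hspa1a, chr17:35191133-35191232, minus strand: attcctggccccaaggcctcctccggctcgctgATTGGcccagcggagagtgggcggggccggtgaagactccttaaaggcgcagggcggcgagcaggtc
Hspa1b, chr17:35178215-35178314, minus strand: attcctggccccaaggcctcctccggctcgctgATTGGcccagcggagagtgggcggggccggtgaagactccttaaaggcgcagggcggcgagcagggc
Dnajb1, chr8:84334722-84334821, plus strand: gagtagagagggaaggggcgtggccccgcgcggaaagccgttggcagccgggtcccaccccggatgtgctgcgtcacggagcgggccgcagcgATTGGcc
Over the whole 250 bases Hspa1a and Hspa1b differed at 3 positions, 1 of them in the stretch shown, and their transcripts were 99.23% identical over 2201 aligned bases. The letters of a CCAAT box lay within 100 bases of the start in 5 of the 10 members, these 3 together with Hsf1 and Hsph1. In Dnajb1 they lay close to the canonical start and inside the annotated gene, which begins at 84334811. Whether these letters act as a CCAAT box was not tested.

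The libraries held 14659876 to 20346460 counts in the liver and 13752842 to 20001959 counts in the cells. The 10 members together held 0.238% to 0.275% of a liver library, 0.583% to 0.608% of a control cell library and 0.395% to 0.466% of an esculetin cell library. Values below are CPM, counts scaled to library size with TMM factors. The summed CPM of 5 hepatocyte markers ran from 95793 to 125088 in the liver and did not exceed 0.878 in the cells. That of 5 macrophage markers ran from 1979 to 2202 in control cells and from 4724 to 7255 in esculetin cells, while the Kupffer cell markers Clec4f, Timd4, Vsig4 and Marco were at or near 0 in both. Most of the rise of this macrophage sum came from Lyz2, whose mean went from 638 to 3496 CPM. The folds were 5.48 for Lyz2, 1.95 for Csf1r, 1.64 for Itgam, 1.24 for Adgre1 and 1.16 for Cd68. Of these macrophage markers, Adgre1, Csf1r, Lyz2 and Itgam were called higher and Cd68 was not, and their part in the members' values was not tested. Liver control 1 stood apart on the first principal component (-47.9, against -3.44 to 19.4 in the other 5) and had 6.35% mitochondrial counts against 3.60% to 4.59%. On the first component of the cells, esculetin libraries 1 to 3 lay at 40.8, 51.6 and 60.5, and controls at -52.6 to -49.3. In these bulk samples fewer cells of a type and less RNA per cell cannot be told apart.

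In the ox-LDL-treated RAW264.7 cells, esculetin was accompanied by higher Hsp90aa1, Dnajb1 and Hsph1 and by lower Hsp90ab1. Hsf1 was slightly lower, and Hspa8, Hspa1b and Hspd1 did not pass the test. Of the 10 members, 8 had enough counts to be tested and 5 were called at an adjusted p under 0.05 (edgeR quasi-likelihood test, Benjamini-Hochberg adjustment over 13277 genes), 3 higher and 2 lower. Of all tested genes, 57.7% were called, 28.7% higher and 29.0% lower, so a called gene was common in these cells. Groups did not overlap for 5 of the 8 members and for 64.1% of all tested genes. The median log2 fold change was 0.14 over the 8 members and -0.01 over all tested genes.

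**Figure D1:**
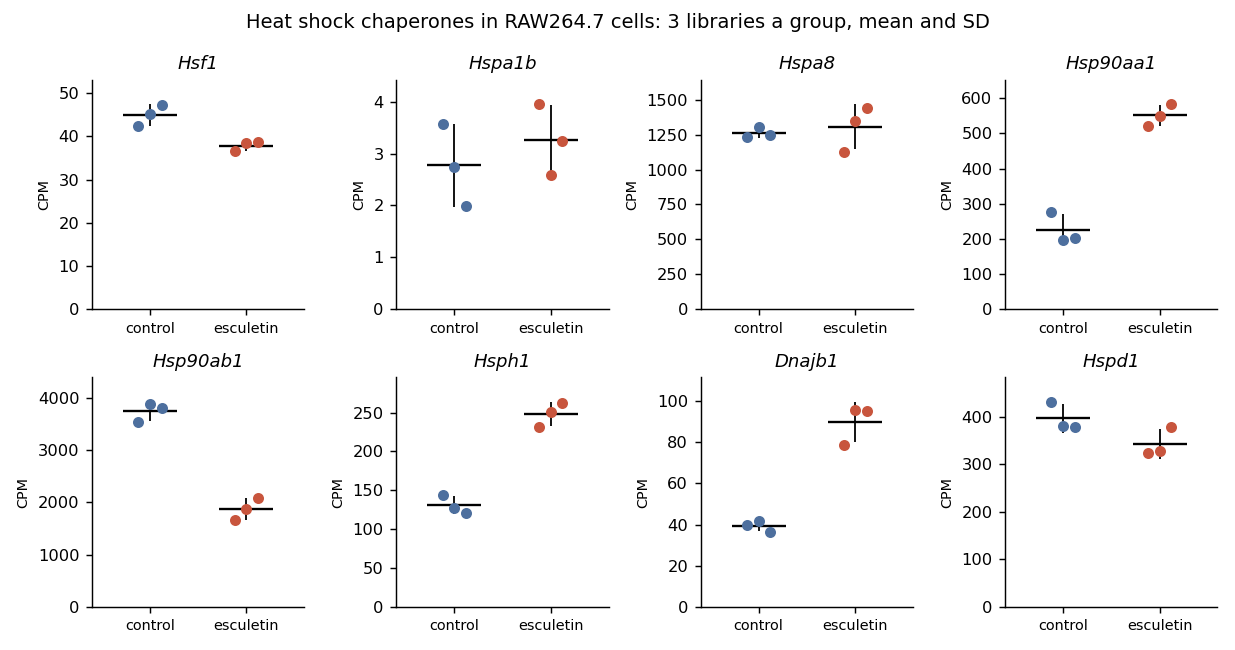
CPM (vertical axis, linear from 0) of the 8 members tested in RAW264.7 cells, with 1 point per library, the mean as a horizontal line and the SD as a vertical line, for 3 control and 3 esculetin libraries. The groups are fully apart for Hsf1, Hsp90aa1, Hsp90ab1, Hsph1 and Dnajb1, and they overlap for Hspa1b, Hspa8 and Hspd1.

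The transcription factor of the response, Hsf1 (ENSMUSG00000022556, chromosome 15, 76361558 to 76388138), stood at 42.3, 45.2 and 47.3 CPM in the control cells and at 36.5, 38.4 and 38.6 CPM with esculetin. Every esculetin library was below every control library, though the gap was small. The log2 fold change was -0.25 ± 0.09 (SE, n = 3 a group, adjusted p = 0.0414 by edgeR). The call was lost under 7 alternatives, with adjusted p from 0.0503 to 0.185, and also under the stated criterion of the study, which asks for a fold over 1.5. Hsf1 overlaps the genes Bop1 and Dgat1, and the strandedness of the counts was not stated. Bop1 had a log2 fold change of 0.36 (adjusted p = 0.0561) and Dgat1 of 0.17 (adjusted p = 0.305 by edgeR), both opposite in sign.

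The inducible HSP70 genes had few counts in the cells, and how reads that match both paralogs were counted was not stated. Hspa1a (ENSMUSG00000091971, chromosome 17, 35188166 to 35191132) had 0 counts in all 6 libraries, and no fold change is given for it. Hspa1b (ENSMUSG00000090877, chromosome 17, 35175412 to 35178214) had 69, 51 and 41 counts in control cells and 54, 38 and 58 with esculetin, between 1.99 and 3.95 CPM. These groups overlapped, and the log2 fold change of 0.23 had a 95% interval from -0.38 to 0.85 (adjusted p = 0.497). With so few counts the interval was wide, and the size of change that could be detected was not computed.

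Hspa8 (ENSMUSG00000015656, chromosome 9, 40711630 to 40731039), the constitutive HSP70 that folds nascent chains and uncoats clathrin vesicles, was abundant. It stood at 1236, 1304 and 1245 CPM in control cells and at 1128, 1344 and 1444 CPM with esculetin. The esculetin libraries lay on both sides of the controls, and the log2 fold change was 0.05 (95% interval -0.18 to 0.28, adjusted p = 0.704). Its sign was negative with library size as the only scaling (-0.02) and without esculetin library 3 (-0.03).

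Reads of Hspa8 can also match processed pseudogenes, retrocopies that lack introns. How such reads were counted was not stated, and the origin of the counts of the copies was not tested. Of its 5 such copies, Gm15459 on chromosome 5 (5831615 to 5833555) was 99.74% identical to the transcript over 1941 bases. In the cells it carried 753, 768 and 749 CPM in control and 636, 746 and 829 CPM in esculetin libraries, against 19.6 to 24.1 CPM in the liver. The copies together amounted to at most 61.3% of the counts of Hspa8 in a cell library and to at most 2.78% in a liver library. With the copies added to Hspa8, the log2 fold change in the cells was 0.02 (adjusted p = 0.901), so this sum did not pass the test either.

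Hsp90aa1 (ENSMUSG00000021270, chromosome 12, 110656842 to 110669166), the inducible cytosolic HSP90, had the largest rise of the 8 members tested in the cells. It went from 276, 198 and 203 CPM in control cells to 522, 550 and 583 CPM with esculetin, a 2.44-fold rise (log2 1.29 ± 0.12 SE, n = 3 a group, edgeR adjusted p = 7.02e-06). Its 3 pseudogene copies held at most 2.16% of its counts in a cell library. The most abundant copy, Gm12346, went from 2.77 to 3.73 CPM in control cells to 8.42 to 10.5 CPM with esculetin, and reads of the copy and of Hsp90aa1 cannot be told apart with certainty.

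Hsp90ab1 (ENSMUSG00000023944, chromosome 17, 45878552 to 45891949), the constitutive cytosolic HSP90, went the other way. It stood at 3537, 3877 and 3809 CPM in control cells and at 1655, 1877 and 2082 CPM with esculetin. The fold was 0.500 (log2 -1.0 ± 0.11 SE, n = 3 a group, edgeR adjusted p = 1.61e-05), and no library of either group came near the other group. It overlaps Slc35b2, which had a log2 fold change of 0.23 (adjusted p = 0.0669).

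The HSP90 pair was therefore also read on one scale, CPM per kilobase of canonical transcript, a comparison chosen after the values were seen. Hsp90aa1 made up 5.64%, 3.76% and 3.93% of the pair in control cells and 19.4%, 18.3% and 17.7% with esculetin. The sum of both genes was 1387, 1490 and 1467 CPM per kilobase in control cells and 760, 850 and 935 with esculetin, so that the pair as a whole was lower while its inducible member was higher. The mean share rose from 4.44% ± 1.04 to 18.5% ± 0.905, and the mean sum went from 1448 ± 54.4 to 848 ± 87.6 CPM per kilobase (SD, n = 3). An exact two-sided permutation test of 3 against 3 libraries gave p = 0.1 for either quantity, the smallest value this design allows. In the liver the share was 5.89% ± 2.29 in controls and 5.91% ± 0.846 with esculetin (SD, n = 3, exact permutation p = 1), and the groups overlapped.

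**Figure D2:**
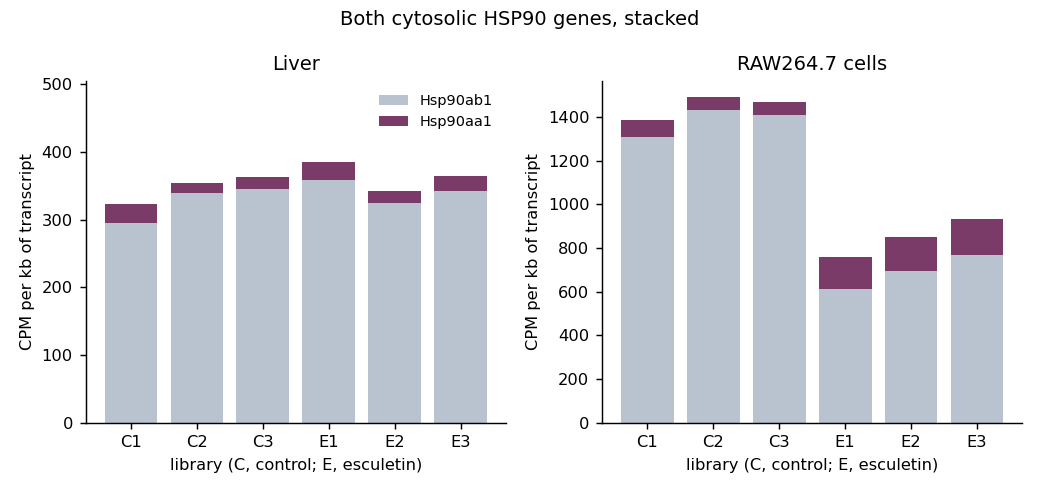
CPM per kilobase of canonical transcript of Hsp90ab1 (grey) with Hsp90aa1 (purple) stacked on top, 1 bar per library, liver on the left and RAW264.7 cells on the right, each axis starting at 0 with its own range. In the cells the stacks of the 3 esculetin libraries are lower (760 to 935) than those of the controls (1387 to 1490), yet their purple part is larger.

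Hsph1 and Dnajb1 serve the HSP70 cycle. Hsph1 (ENSMUSG00000029657, chromosome 5, 149537636 to 149560156), an HSP110 nucleotide exchange factor, stood at 143, 127 and 121 CPM in control cells and at 231, 251 and 262 CPM with esculetin. The fold was 1.90 (log2 0.93 ± 0.09 SE, n = 3 a group, edgeR adjusted p = 8.79e-06). Dnajb1 (ENSMUSG00000005483, chromosome 8, 84334811 to 84339820), the stress-inducible HSP40, stood at 39.6, 41.5 and 36.5 CPM in control cells and at 78.8, 95.8 and 95.4 CPM with esculetin. Both genes were above every control in every esculetin library, Dnajb1 by a fold of 2.30 (log2 1.20 ± 0.10 SE, n = 3 a group, edgeR adjusted p = 3.16e-06). No other transcript of the annotation matched either gene over at least 150 bases at 95% identity.

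Hspb1 (ENSMUSG00000004951, chromosome 5, 135916760 to 135918417), the small heat shock protein known as HSP25 in mouse, was near the floor in the cells with 5, 1 and 5 counts in control and 0, 3 and 0 counts in esculetin libraries, and it was not tested. Hspd1 (ENSMUSG00000025980, chromosome 1, 55116989 to 55171038) encodes HSP60, the chaperonin of the mitochondrial matrix. It stood at 431, 380 and 379 CPM in control cells and at 323, 327 and 379 CPM with esculetin, where library 3 reached the level of the controls. The log2 fold change was -0.21 (95% interval -0.41 to -0.00209, adjusted p = 0.0775). It passed the threshold with library size as the only scaling (-0.28, adjusted p = 0.0182), with no filter on low counts (-0.25, adjusted p = 0.0389) and without esculetin library 3 (-0.29, adjusted p = 0.0122).

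In the liver no member was called among the 10 tested, against 0.0859% of 12813 genes (11 genes). The edgeR test gave an unadjusted p under 0.05 for 3 members (Hspa1a, Hspb1 and Dnajb1) and for 8.37% of all tested genes. DESeq2 and limma-voom also called no member. The groups did not overlap for 1 member, Dnajb1, and for 14.5% of all tested genes. The median log2 fold change was 0.12 over the 10 members and -0.02 over all tested genes. Without liver control 1, the library that stood apart, again no member was called.

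**Figure D3:**
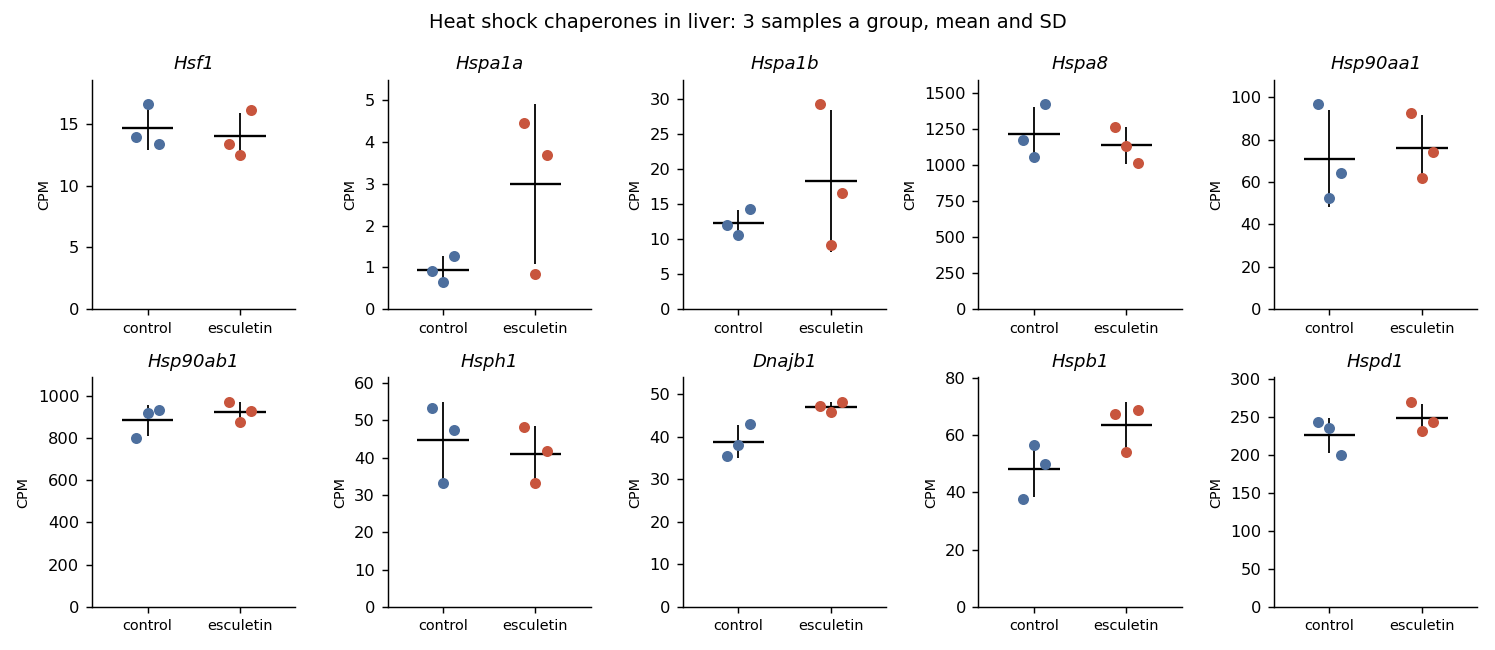
CPM (vertical axis, linear from 0) of all 10 members in the liver, with 1 point per sample, the mean as a horizontal line and the SD as a vertical line, for 3 control and 3 esculetin samples. Hspa1a and Hspa1b spread widely among the esculetin samples, and Dnajb1 is the member whose groups are apart.

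The inducible HSP70 genes varied most. Hspa1a had 15, 13 and 22 counts in control livers (0.921, 0.641 and 1.28 CPM) and 82, 13 and 57 counts with esculetin (4.47, 0.844 and 3.69 CPM). Esculetin samples 1 and 3 lay above the controls and sample 2 lay among them. The adipose markers Adipoq and Plin1 were also highest in esculetin samples 1 and 3. In CPM, Adipoq in sample 2 (0.260) was only just above the highest control (0.247), and Plin1 in sample 2 lay among the controls. Adipoq had 0, 5 and 3 counts in control livers and 25, 4 and 58 with esculetin, and Plin1 had 0, 7 and 0 against 14, 2 and 41. The blood markers Hba-a1 and Hbb-bs did not have this pattern. The part of tissue composition in the values of Hspa1a and Hspa1b was not tested. The log2 fold change was 1.68 ± 0.52 (SE, n = 3 a group) with an unadjusted p of 0.00686 and an adjusted p of 0.372 by edgeR. With no filter on low counts the adjusted p was 0.000488 at a log2 fold change of 1.67, a setting under which edgeR called 339 genes. Over the other alternatives the adjusted p ran from 0.0611 to 0.994.

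Hspa1b stood at 12.0, 10.7 and 14.3 CPM in control livers and at 29.3, 9.09 and 16.6 CPM with esculetin. Again samples 1 and 3 were above the controls, while sample 2 was below them. The log2 fold change of 0.58 (95% interval -0.11 to 1.27, adjusted p = 0.647) fell to 0.05 without esculetin sample 1. Since reads of these paralogs are hard to separate, their counts were also summed, which gave a log2 fold change of 0.69 (adjusted p = 0.608).

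Dnajb1 stood at 35.6, 38.0 and 43.1 CPM in control livers and at 47.2, 46.0 and 48.1 CPM with esculetin, with all esculetin samples on top. The log2 fold change was 0.28 ± 0.12 (SE, n = 3 a group, unadjusted p = 0.0390, adjusted p = 0.560 by edgeR). Hspb1, hardly present in the cells, stood at 37.5, 56.6 and 49.8 CPM in control livers and at 67.2, 54.0 and 68.9 CPM with esculetin. Its groups overlapped through esculetin sample 2, while the other esculetin samples lay above the controls, as for Hspa1a. The part of tissue composition in the values of Hspb1 was not tested either. The log2 fold change was 0.40 ± 0.16 (SE, n = 3 a group, unadjusted p = 0.0273, adjusted p = 0.529 by edgeR).

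The other 6 members had log2 fold changes between -0.12 and 0.14 in the liver, and their groups overlapped. Hspa8 stood at 1178, 1055 and 1425 CPM in control livers and at 1266, 1137 and 1013 CPM with esculetin. The HSP90 pair, so different between the groups of the cells, was close to level: Hsp90aa1 stood at 96.7, 52.3 and 64.3 CPM in controls and 92.6, 62.1 and 74.2 CPM with esculetin (log2 0.10, 95% interval -0.35 to 0.56). Hsp90ab1 stood at 798, 919 and 933 CPM in controls and at 969, 877 and 928 CPM with esculetin (log2 0.07, 95% interval -0.21 to 0.34). The intervals of both genes leave out the changes seen in the cells. Hsph1 (log2 -0.12, 95% interval -0.52 to 0.28), Hspd1 (0.14, -0.14 to 0.41) and Hsf1 (-0.07, -0.41 to 0.28) did not pass the test either. The direction of Hsf1, Hspa8, Hsp90aa1 and Hsph1 in the liver turned when single samples were left out.

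The difference of the effects, cells minus liver, was tested in 1 model of all 12 libraries. It passed the threshold for 4 of the 9 members that could be fitted, against 27.1% of 15709 genes. Hspa1a could not be fitted because all its cell counts were 0. The difference of log2 fold changes was 1.15 ± 0.28 for Hsp90aa1 (adjusted p = 0.00582), 1.0 ± 0.23 for Hsph1 (adjusted p = 0.00349) and 0.88 ± 0.16 for Dnajb1 (adjusted p = 0.000597, SE from edgeR). For Hsp90ab1 it was -1.11 ± 0.17 (SE, edgeR adjusted p = 0.000209). Hspd1 (-0.38, adjusted p = 0.0876), Hsf1 (-0.22, 0.396), Hspa8 (0.11, 0.774), Hspa1b (-0.39, 0.622) and Hspb1 (-1.84, 0.181, on at most 5 counts per cell library) did not pass. The cells and livers also differed in dose, route, duration and ox-LDL or diet, which cannot be told apart from the tissue.

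**Figure D4:**
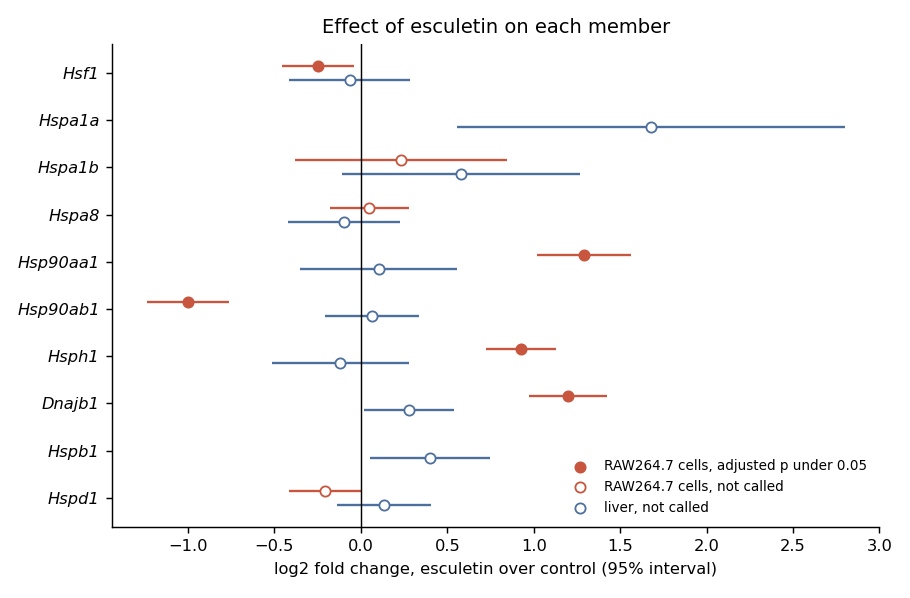
Log2 fold change of esculetin over control (horizontal axis) with its 95% interval for each member in RAW264.7 cells (red) and liver (blue). Filled points passed an adjusted p under 0.05. Hsp90aa1 (1.29), Dnajb1 (1.20), Hsph1 (0.93), Hsf1 (-0.25) and Hsp90ab1 (-1.0) are filled in the cells, no liver point is filled, and Hspa1a and Hspb1 have no value in the cells.

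Read per kilobase of canonical transcript, the control levels of the members had a different order in each system. In control cells Hsp90ab1 led with 1384 CPM per kilobase, followed by Hspa8 with 527, Hspd1 with 164 and Hsp90aa1 with 63.9. Below them came Hsph1 with 21.1, Dnajb1 with 11.1, Hsf1 with 8.75 and Hspa1b with 0.989 CPM per kilobase, then Hspb1 with 0.202 and Hspa1a with 0. With its pseudogene copies added, Hspa8 stood at a mean of 2023 CPM in control cells against 1262 CPM without them, before division by length. In control livers Hspa8 led with 509 CPM per kilobase, ahead of Hsp90ab1 with 327, Hspd1 with 93.3, Hspb1 with 52.4 and Hsp90aa1 with 20.1. Dnajb1 with 11.0, Hsph1 with 7.23, Hspa1b with 4.40, Hsf1 with 2.85 and Hspa1a with 0.320 followed. The tables were scaled separately, so orders are given within a system, and in both systems the ranges of neighbouring members over the 3 control libraries did not overlap.

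The wider chaperone network was described with 71 further genes grouped by role. In the cells 67 were tested and 37 called, 14 higher and 23 lower, beside 57.7% of all genes. The median log2 fold change was -0.14 over these genes and -0.01 over all. By direction, 28.7% of all tested genes were called higher and 29.0% lower. The counts of each role are given as a description, differences between roles were not tested, and a gene was filed under 1 role only (Dnaja3, a mitochondrial HSP40, under the mitochondrial chaperones). Among the 9 tested HSP40 genes 4 were higher and none lower, including Dnajc7 (58.1 ± 2.08 to 108 ± 3.32 CPM, log2 0.90), Dnaja1 (62.3 ± 2.47 to 110.0 ± 16.6 CPM, log2 0.82) and Dnajc5 (227 ± 11.0 to 332 ± 24.5 CPM, log2 0.55, SD, n = 3). DNAJA1 is a partner of cytosolic HSP70, and DNAJC5 acts on synaptic and secretory vesicles. Of 7 tested HSP70 and HSP110 genes 2 were higher, Hspa13 (log2 0.71) and Hspa4 (log2 0.30), and Hspa12a was lower (2.39 ± 0.653 to 0.557 ± 0.0516 CPM, log2 -2.08, SD, n = 3).

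Cochaperones were split. Of 7 HSP70 cochaperones, Bag5 was higher (log2 0.57), and Bag1 (131 ± 6.70 to 81.8 ± 9.85 CPM, log2 -0.68, SD, n = 3) and St13 (log2 -0.29) were lower. Of 14 HSP90 cochaperones 4 were higher and 4 lower. Fkbp4, an immunophilin of steroid receptor complexes, went from 211 ± 10.3 to 124 ± 12.9 CPM (SD, n = 3, log2 -0.77), whereas Cdc37l1 (log2 0.62) and Ahsa2 (log2 0.73) were higher.

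All 6 called of the 8 mitochondrial chaperone genes were lower. Trap1, the mitochondrial HSP90, went from 201 ± 15.6 to 120 ± 2.11 CPM (SD, n = 3, log2 -0.75). Hspe1, the lid of the HSP60 chaperonin, went from 85.8 ± 3.47 to 53.4 ± 4.48 CPM (SD, n = 3, log2 -0.69), and Dnaja3 had a log2 fold change of -0.49. Hspe1 and Hspd1 are divergent neighbours on chromosome 1. The unbroken stretch of 18 bases printed in capitals for Hspd1 also lies in the window of Hspe1. Over the 71 genes a paired element lay in 9 windows (12.7%), near the 12.3% of all protein-coding genes.

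Of the 8 subunits of TRiC, the cytosolic chaperonin that folds actin and tubulin, 2 were higher and 4 lower, among them Cct5 (log2 -0.69), Cct2 (log2 -0.57) and Cct7 (log2 -0.59). Prefoldin delivers chains to TRiC, and 3 of its 6 genes were lower: Pfdn6 (log2 -0.55), Pfdn5 (log2 -0.34) and Pfdn2 (log2 -0.27). Hspb6, 1 of 2 tested small heat shock protein genes, was lower (8.94 ± 0.855 to 1.74 ± 0.917 CPM, log2 -2.37, SD, n = 3). Among the 3 regulators Hsbp1, which binds HSF1 trimers, was lower (log2 -0.38).

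Of 3 further HSF1 target genes, Zfand2a, which encodes a proteasome-associated zinc finger protein induced by arsenite, showed the largest rise of the 71 genes, from 38.3 ± 2.48 to 112 ± 28.5 CPM (SD, n = 3, log2 1.55 ± 0.16 SE, edgeR adjusted p = 9.66e-06). The adjusted p-values of the genes named here in the cells ran up to 0.0450 (Pfdn2).

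In the liver 67 of the 71 genes were tested and none was called by edgeR, DESeq2 or limma-voom. By edgeR 2 had an unadjusted p under 0.05, and the median log2 fold change was 0.06. The smallest unadjusted p-value belonged to Hspe1, which went from 91.9 ± 15.8 to 116 ± 10.5 CPM (SD, n = 3, log2 0.34). Its unadjusted p was 0.0369 by edgeR (adjusted p = 0.556). Hspb8 followed with a log2 fold change of 0.31 (adjusted p = 0.573 by edgeR) and Hsf2 with -0.33 (adjusted p = 0.636 by edgeR). The difference between the effects in cells and liver passed for 23 of 70 fitted genes (7 positive, 16 negative), beside 27.1% of all genes.

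**Figure D5:**
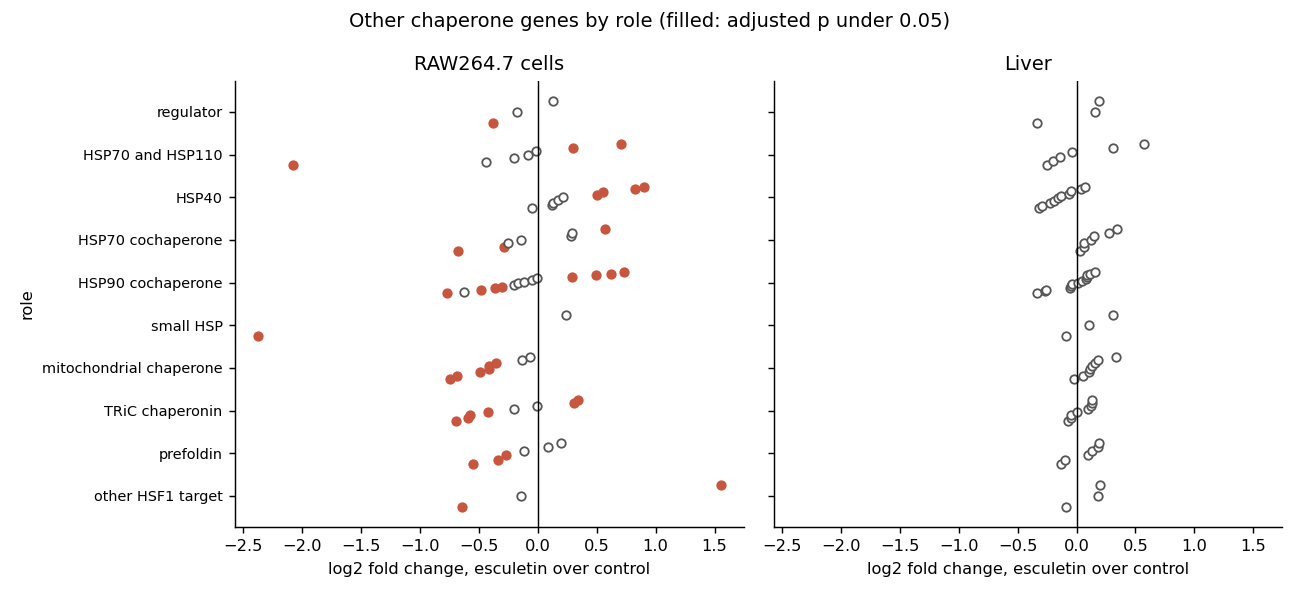
Log2 fold change of esculetin over control (horizontal axis, shared) for the tested genes of the wider chaperone network, 1 point per gene, grouped by role on the vertical axis, in RAW264.7 cells (left) and liver (right). Red filled points passed an adjusted p under 0.05. In the cells 14 filled points lie right of 0 and 23 left of it, and no liver point is filled.

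Hspa8 was tested in both tables, and the genes whose levels followed it most closely were ranked over the 12 libraries on log2 CPM centred within each table. Among 5382 genes the highest Pearson correlations were those of Stip1 (0.91), Snrnp27 (0.86), Scnm1 (0.80), Snx1 (0.79) and Rab8a (0.78). Stip1 encodes the adaptor HOP, which links HSP70 to HSP90. These correlations describe 12 libraries that share their tables' depth and scaling, and no p is attached to them. Hspa1a was not tested in the cells and was not ranked.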

How the data were processed

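RNA-seq libraries were prepared with the NEBNext Ultra kit and sequenced as paired ends. The deposited values are raw counts per gene. The authors aligned reads with HISAT2 2.2.1 and counted them with featureCounts, with GRCm39 as the genome build in the study's methods (the submitters' processing notes also list mm10). Strandedness, multi-mapping reads and the annotation release were not given in the sources used here. Of 55357 identifiers 54749 matched GENCODE on GRCm39, and 608 did not, holding at most 0.0330% of a library.

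Each table was fitted alone in edgeR 4.0.16 (R 4.3.3): filterByExpr, TMM, quasi-likelihood F test with treatment as the only term, two-sided, Benjamini-Hochberg adjustment over all tested genes, called under 0.05. SE was derived from the log2 fold change and the square root of F, and intervals are at 95%. The difference of effects came from a 4-group model of 12 libraries. Alternatives were RLE, upper quartile and library size scaling, no filter, CPM over 1 in 3 libraries, DESeq2 1.42.0, limma-voom (limma 3.58.1), the study's stated criterion (unadjusted p under 0.05, fold over 1.5), a replicate block, each library left out, Hspa1a and Hspa1b summed, and, chosen after seeing the data, pseudogene copies added. Copies were found with BLAST+ 2.17.0. Scripts were tested on simulated data.

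The members and lists were chosen with earlier results of these data known. All members were named. Of the other chaperone genes, up to 3 called genes per role with the smallest p-values were named, and in the liver the 3 with the smallest unadjusted p-values. A called gene and a promoter sequence that would fall under these rules are not reported here. Within each group every pair of libraries differed by more than sampling noise, so none was treated as the same library deposited again. The chi-square per degree of freedom ran from 2.89 to 75.8, the largest between esculetin cell libraries 1 and 3. These differences do not show that the libraries were separate cultures. Figures used Python 3.11.15 with matplotlib 3.10.9.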

Additional observations from a re-analysis of the deposited data

Results flagged for a closer look

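For 4 members the effect of esculetin differed between RAW264.7 cells and liver in the edgeR test of the difference itself. The difference of log2 fold changes, cells minus liver, was 1.15 for Hsp90aa1, -1.11 for Hsp90ab1, 1.0 for Hsph1 and 0.88 for Dnajb1. Each was also past the threshold under every alternative run for it, including each library left out in turn. No group had more than 3 samples, so no test for single outlying samples was run within a group. The position of liver control 1 on the first principal component and the fits without single libraries are given as description.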

How the results depend on the processing

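Cells. Of 5 called members, 3 were higher under every alternative run. The number lower was 2, and 1 (Hsp90ab1) with RLE size factors, with CPM over 1 in 3 libraries, with DESeq2 and with the stated criterion. With library size only and with no filter it was 3, since Hspd1 joined them, and with single libraries left out it ran from 1 to 3. Under the stated criterion 15 of the other chaperone genes were called in place of 37, 6 higher in place of 14 and 9 lower in place of 23, since it asks for a fold over 1.5. Hspa8 turned to -0.0185 with library size only, and ran from -0.0323 (without esculetin 3) to 0.144 without single libraries.

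Liver. No member was called, except 1 (Hspa1a) with no filter and 1 under the stated criterion. The other chaperone genes had no call, except 1 with no filter. Without single libraries the log2 fold change ran from -0.189 (esculetin 3) to 0.0364 (control 2) for Hsf1, from -0.195 (esculetin 1) to 0.00822 (control 3) for Hspa8, from -0.0777 (esculetin 1) to 0.394 (control 1) for Hsp90aa1 and from -0.293 (control 2) to 0.0343 (control 1) for Hsph1. The difference of effects of Hspa1b ran from -0.665 to 0.20, without liver esculetin 2 and 1.

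The replicate block. The labels number the replicates of both arms alike, but same-numbered libraries deviated together with correlations of 0.14, -0.01 and 0.10 in the liver and 0.17, -0.03 and 0.08 in the cells, so the numbers were not taken as pairs. With the block, calls were 5 members and 39 other genes in the cells, none in the liver (123 genes of all, against 11), and 4 members for the difference of effects. Hspa1a, Hspa1b and Hspb1 had few or no counts in the cells, which limits what can be detected for them. The part of reads shared by the HSP70 paralogs in this was not tested.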
